A study of Mus musculus with 15 samples.

Results

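The ATF4 stress response genes described here are 10 genes: the transcription factors Atf4, Atf5, Atf3 and Ddit3, the effector and feedback genes Chac1, Trib3 and Fgf21, and the amino acid synthesis genes Asns, Psat1 and Phgdh. They were chosen by name. Their levels per array, by label and by Cdkn1a signal, and their co-variation with Chac1 and Atf4 were already known. Levels per array and co-variation are therefore given below as a description with no test. Differences between labels were tested in a fit of all features, and for the members those differences had been seen beforehand. Of the 10 genes, 8 were measured above noise, among 11458 genes measured in all. The RNA came from tibialis anterior (TA) muscle of male C57BL/6 mice 8 to 10 weeks of age, with 1 array for each of 15 mice and 5 arrays for each of 3 labels. Mice of the Dox + sACVR2B group were given sACVR2B-Fc, a decoy receptor for myostatin, activins and related ligands, 48 hours ahead of doxorubicin. Mice of the Dox group received doxorubicin, a chemotherapy drug that damages DNA, alone, and mice of the Ctrl group received PBS. All injections were intraperitoneal, and the muscles were taken 20 hours after doxorubicin or PBS. No group received sACVR2B-Fc without doxorubicin. Strain and age are given here as labelled, and the methods name the substrain C57BL/6J and a slightly narrower age range.

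ATF4 is made when one of several stress-sensing kinases phosphorylates the translation factor eIF2alpha, which slows protein synthesis in general but favours translation of the Atf4 mRNA. The protein then binds, with partners of the C/EBP family, to elements in genes for amino acid synthesis and transport, tRNA charging, redox balance and feedback on the response itself. In skeletal muscle the pathway is known from amino acid shortage, endoplasmic reticulum stress, mitochondrial stress and wasting. Much of the control of ATF4 acts on translation, and the arrays measured mRNA only.

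Promoter sequences are shown for 3 genes, all with a match to the patterns given below. They are Chac1, whose level varied most among the members, Trib3, whose level followed that of Chac1 most closely among them, and Asns. Asns had a Pearson's r of 0.59 with Atf4. Atf5 had a higher one, 0.76, but held no match and is not shown. Each stretch holds 250 bases before and 50 bases after a RefSeq start site in mouse build GRCm38.p6, is written 5′ to 3′ on the strand of the gene, and has the matches to TGATGNAA or TGACGNAA, or to their reverse complements TTNCATCA and TTNCGTCA, in capitals. TGATGNAA is a form of the C/EBP-ATF response element, to which ATF4 binds with a C/EBP partner.
Chac1 (chr2:119350992-119351291, + strand): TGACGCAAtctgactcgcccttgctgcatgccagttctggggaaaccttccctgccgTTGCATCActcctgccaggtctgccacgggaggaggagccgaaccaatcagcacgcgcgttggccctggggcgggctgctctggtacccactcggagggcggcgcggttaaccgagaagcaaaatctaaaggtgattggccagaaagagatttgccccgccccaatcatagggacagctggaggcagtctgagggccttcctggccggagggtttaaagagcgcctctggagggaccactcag
Trib3 (chr2:152344011-152344310, - strand): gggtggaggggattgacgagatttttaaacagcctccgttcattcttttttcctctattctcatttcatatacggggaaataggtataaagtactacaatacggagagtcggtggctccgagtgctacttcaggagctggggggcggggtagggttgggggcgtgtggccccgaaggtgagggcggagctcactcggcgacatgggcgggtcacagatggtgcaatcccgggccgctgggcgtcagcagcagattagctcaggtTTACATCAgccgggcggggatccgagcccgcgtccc
Asns (chr6:7693160-7693459, - strand): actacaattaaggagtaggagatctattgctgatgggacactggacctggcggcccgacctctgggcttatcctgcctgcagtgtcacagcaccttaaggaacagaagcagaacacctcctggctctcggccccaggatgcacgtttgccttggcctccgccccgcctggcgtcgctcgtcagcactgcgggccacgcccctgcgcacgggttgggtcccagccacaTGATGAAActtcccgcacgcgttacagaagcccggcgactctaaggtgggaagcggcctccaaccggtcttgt
TGATGNAA was found on either strand in the promoters of 5 of the 10 genes (Asns, Atf3, Chac1, Fgf21 and Trib3). It was found in 3.97% of 32851 RefSeq promoter stretches of 300 bases, a set that left out 1 chromosome. TGACGNAA, which differs from it by 1 letter and cannot match the same bases, was in the promoters of Chac1 and Atf3 and in 1.59% of the same stretches. Counted from the start site, the matches in Chac1 began at -193 and -250, that in Asns at -23 and that in Trib3 at 14. For Atf5 and Psat1 2 start sites each were searched, which made 12 stretches for the 10 genes, and neither pattern was found in those of Atf4, Atf5, Ddit3, Psat1 and Phgdh. These genes were known as ATF4 targets beforehand, and a match describes letters in a window, not binding.

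Values were deposited as linear signal intensities, normalized over the arrays so that the sorted values differ by at most 0.5 between arrays at any rank. A feature (a set of beads that carry 1 probe) counted as above noise where its signal exceeded 12.4 on at least 5 arrays, which held for 21307 of 45281 features. Levels below are either this signal or log2(signal + 50), a scale that understates the differences of dim features. The array holds 16 features for the 10 genes, of which 11 were above noise, and each gene is represented by its brightest feature unless stated. Signals of different genes are not compared, because brightness depends on the probe. All 8 skeletal muscle markers, among them Ckm, Acta1 and Myh4, were above noise, with a summed signal of 152391 to 165710 on the arrays labelled Dox + sACVR2B, 167084 to 186330 on those labelled Dox and 166914 to 185575 on those labelled Ctrl. RNA of whole muscle cannot tell fewer cells of a type from less RNA per cell.

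The labels of some arrays are in doubt. Cdkn1a, the gene of the inhibitor p21, is a target of p53 and rises after DNA damage. It had a signal of 4560, 4047, 3623, 209 and 359 on the arrays labelled Dox + sACVR2B 1 to 5, of 2359, 132, 4013, 3316 and 2694 on those labelled Dox 1 to 5, and of 4301, 294.5, 187, 4057 and 4634 on those labelled Ctrl 1 to 5. High and low arrays thus occurred under every label. In all, 10 arrays had a signal of 1000 or more (2359 to 4634) and 5 had less (132 to 359). The 5 low arrays, labelled Dox + sACVR2B 4, Dox + sACVR2B 5, Dox 2, Ctrl 2 and Ctrl 3, were also the lowest for both other Cdkn1a features. Arrays are therefore called by their labels, the labels were kept as given, and every direction between labels given below rests on labels in doubt. The split by Cdkn1a is a measured value, not a treatment, and carries no test.

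Chac1, which encodes an enzyme that degrades glutathione and is a late target of the ATF4 branch, varied more over the arrays than nearly all genes. Its signal was 1764, 3328, 443, 678 and 3370 on the arrays labelled Dox + sACVR2B 1 to 5, against 538, 7932, 4589, 186.5 and 105 on those labelled Dox 1 to 5 and 5367, 3346, 3482, 7173 and 8838 on those labelled Ctrl 1 to 5. The arrays labelled Ctrl all lay at or above the median of the 15 arrays, 3346, with Ctrl 2 at it and Ctrl 3 close to it. Those labelled Dox had 2 arrays above the median and 3 below, and the ranges of each pair of labels overlapped. The highest signal was 84.3 times the lowest, and the range of 5.84 on the log2 scale was the third widest of the 11458 genes, whose median range was 0.67. Cdkn1a, at 4.69, had rank 5. These ranges favour features of high signal, since the offset compresses low ones.

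Ordered by signal, the arrays labelled Dox 5 and Dox 4 were lowest for Chac1, followed by Dox + sACVR2B 3, Dox 1, Dox + sACVR2B 4 and Dox + sACVR2B 1. From Dox + sACVR2B 2 to Ctrl 3, the next 4 arrays lay between 3328 and 3482, which is too close to order them. The arrays labelled Dox 3, Ctrl 1, Ctrl 4, Dox 2 and Ctrl 5 were highest. With 1 array a mouse and 1 Chac1 feature, no repeat measurement of a mouse was at hand.

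**Figure D1:**
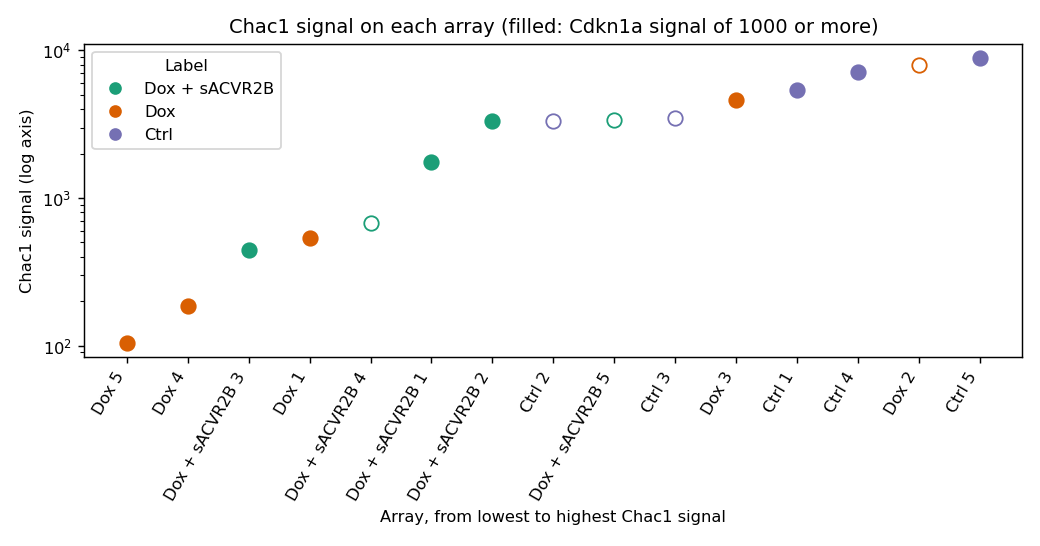
Chac1 signal (log axis) on each of the 15 arrays, ordered from the lowest to the highest and coloured by label, with filled points for the 10 arrays of Cdkn1a signal of 1000 or more and open points for the 5 under 1000. Signals run from 105 on Dox 5 to 8838 on Ctrl 5, and the 5 open points lie between 678 and 7932.

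Chac1 did not follow the Cdkn1a split. On the 10 arrays of Cdkn1a signal of 1000 or more, Chac1 ran from 105 to 8838 (median 2546), and on the 5 arrays under 1000 from 678 to 7932 (median 3370). Within the 10 arrays, however, Chac1 and Cdkn1a co-varied, with Pearson's r of 0.77 and Spearman's rho of 0.78. Among those 10 the arrays labelled Dox 1, Dox 4 and Dox 5, low in Chac1, also had the lowest Cdkn1a signals (2359, 3316 and 2694). Chac1 was 5367, 7173 and 8838 on those labelled Ctrl, 443 to 3328 on the 3 labelled Dox + sACVR2B and 105 to 4589 on the 4 labelled Dox. The share of all features with labels apart among these 10 arrays was not computed, so this order is not a result about Chac1. All correlations here are descriptions over arrays that were normalized together.

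Between labels, Chac1 had the widest difference of any member, and it did not pass the test. The log2 level was 10.55 ± 1.28 on the arrays labelled Dox + sACVR2B, 9.90 ± 2.55 on those labelled Dox and 12.37 ± 0.61 on those labelled Ctrl (SD, n = 5 each). The log2 fold change was -2.47 for Dox against Ctrl (95% interval -4.35 to -0.59, adjusted p = 0.393 from limma) and -1.82 for Dox + sACVR2B against Ctrl (95% interval -3.70 to 0.06, adjusted p = 0.571 from limma). For Dox + sACVR2B against Dox it was 0.65 (95% interval -1.23 to 2.53, adjusted p = 0.996 from limma). The Dox against Ctrl value was -1.81 without the array labelled Dox 5 and -3.24 without that labelled Dox 2 (adjusted p = 0.772 and 0.118 from limma). Without the 5 arrays of low Cdkn1a it was -3.64, which is a description only, since that setting was chosen after seeing the data. For Dox + sACVR2B against Dox the value was -0.0089 without the array labelled Dox 5 and 1.41 without that labelled Dox 2.

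The summed signals of endothelial, fibroblast and red cell markers moved with Chac1 over the arrays, though not every gene of these lists did. Of the endothelial list all 4 genes (Pecam1, Cdh5, Kdr and Tek) were above noise, and their summed signal had an r of 0.67 with the Chac1 level over 15 arrays and 0.78 within the 10 arrays of high Cdkn1a. It ran from 2746 to 3238 on the arrays labelled Dox + sACVR2B, 2656 to 3325 on those labelled Dox and 3160 to 4280 on those labelled Ctrl. Singly, Tek (0.72) and Cdh5 (0.61) followed Chac1 over the 15 arrays, whereas Pecam1 had an r of 0.23 and Kdr of -0.15. The summed fibroblast markers (4 of 4 above noise) had an r of 0.61 over 15 arrays and 0.82 within the 10, and ran from 19808 to 30923 on the arrays labelled Dox + sACVR2B, 16943 to 25558 on those labelled Dox and 22206 to 25967 on those labelled Ctrl. The collagen genes Col1a1 (0.54) and Col3a1 (0.62) and the matrix gene Dcn (0.66) followed Chac1, and Pdgfra, a receptor of fibroblasts, did not (r = -0.33). The red cell markers Hba-a1 and Alas2 (2 of 3 listed genes above noise) had a sum with an r of 0.62 and 0.84, running from 3858 to 27820 on the arrays labelled Dox + sACVR2B, 3086 to 8321 on those labelled Dox and 5848 to 10260 on those labelled Ctrl. The summed adipocyte markers (2 of 4 above noise) had an r of 0.24 with Chac1, the macrophage markers (4 of 5) of -0.19, the slow fibre markers (3 of 4) of 0.21, the nerve marker Mbp (1 of 4) of 0.55 and the skeletal muscle markers (8 of 8) of 0.29. The adipocyte sum ran from 159.6 to 1633 on the arrays labelled Dox + sACVR2B and from 307 to 875 on those labelled Dox. On the arrays labelled Ctrl it ran from 44.3 to 832, so that it came near the floor on at least 1 array. No other list's summed signal was at or near 0, and the part of other cell types in the Chac1 values was not tested.

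Atf4 itself, the factor at the centre of the response, varied far less than Chac1 over the arrays, with a log2 range of 0.76 against a median of 0.67 over all genes. Its brighter feature had signals of 3423, 4261, 3673, 4489 and 4333 on the arrays labelled Dox + sACVR2B 1 to 5, of 3475, 3992, 3149, 2864 and 3966 on those labelled Dox and of 3434, 4887, 4847, 4712 and 3527 on those labelled Ctrl. The highest was 1.71 times the lowest, the ranges of the labels overlapped, and no difference between labels passed the test. The log2 fold change was -0.29 for Dox against Ctrl (95% interval -0.56 to -0.01, adjusted p = 0.479 from limma), 0.21 for Dox + sACVR2B against Dox (adjusted p = 0.996 from limma) and -0.07 for Dox + sACVR2B against Ctrl (adjusted p = 0.896 from limma).

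The dimmer Atf4 feature showed a different order. Its signals were 953, 979.7, 947, 967 and 1001 on the arrays labelled Dox + sACVR2B 1 to 5, against 921, 787, 741, 610.4 and 855 on those labelled Dox and 868, 903, 796, 779 and 847.5 on those labelled Ctrl. The 5 arrays labelled Dox + sACVR2B therefore lay above all 10 others. All 5 arrays of the label lay above those of the other label for 0.493% of all features above noise for Dox + sACVR2B against Dox and for 1.01% for Dox + sACVR2B against Ctrl, and below them for 0.361% and 0.835%. For Dox against Ctrl 0 of the 11 member features had labels without overlap, where 0.662% of all features lay wholly higher and 0.526% wholly lower. The log2 fold changes of this feature, 0.30 against Dox and 0.20 against Ctrl, were among those with an unadjusted p under 0.05 and did not pass after adjustment (adjusted p = 0.996 and 0.554 from limma). Over the arrays both Atf4 features had an r of only 0.42 with each other, so the order of the labels for Atf4 depends on the feature, and this feature was singled out after its values were seen.

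Ddit3, which encodes the stress-induced factor CHOP, had signals of 210.2, 154, 179.9, 309 and 232 on the arrays labelled Dox + sACVR2B, of 195, 222, 134.5, 118 and 255 on those labelled Dox and of 129, 231.5, 248, 127.5 and 122 on those labelled Ctrl, each in the order 1 to 5. Both Ddit3 features above noise gave nearly the same pattern, with an r of 0.96 between them. The log2 fold changes of Ddit3 were 0.29 for Dox + sACVR2B against Ctrl, 0.20 for Dox + sACVR2B against Dox and 0.09 for Dox against Ctrl, and none passed the test (adjusted p = 0.699, 0.996 and 0.905 from limma). By Cdkn1a, Ddit3 ran from 118 to 255 on the 10 arrays of high Cdkn1a signal (median 144) and from 222 to 309 on the 5 of low signal (median 232). All but 1 of the 10 lay below the lowest of the 5, and the exception was the array labelled Dox 5.

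Atf5, a factor related to ATF4 that is known from the mitochondrial stress response, stood higher on most of the arrays low in Cdkn1a. Atf5 signals were 776, 1072, 679.7, 972 and 1086 on the arrays labelled Dox + sACVR2B 1 to 5, of 726, 1124, 769, 783 and 696 on those labelled Dox and of 749.7, 1251, 1188, 944 and 727 on those labelled Ctrl. On the 10 arrays of high Cdkn1a signal it ran from 679.7 to 1072 (median 759), and on the 5 of low signal from 972 to 1251 (median 1124). These ranges overlapped through the array labelled Dox + sACVR2B 2. Log2 fold changes of Atf5 between labels ran from -0.22 to 0.15, with adjusted p-values from limma of 0.680 to 0.996.

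Atf3, an early stress-induced factor, had signals of 63.8, 38.8, 106.5, 99.4 and 44.6 on the arrays labelled Dox + sACVR2B 1 to 5, of 122.5, 81.2, 73.9, 122 and 69.5 on those labelled Dox and of 50.9, 82.9, 75.0, 81.0 and 78.2 on those labelled Ctrl. The 2 highest arrays were labelled Dox and the 2 lowest Dox + sACVR2B, with overlap between each pair of labels. The log2 fold change of Atf3 for Dox against Ctrl was 0.21, that for Dox + sACVR2B against Dox -0.27 and that for Dox + sACVR2B against Ctrl -0.07 (adjusted p = 0.680, 0.996 and 0.932 from limma). Over all 15 arrays Atf3 had the lowest r with Chac1 of the measured members, at -0.49, and it had -0.52 within the 10 of high Cdkn1a.

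Trib3, a pseudokinase that restrains ATF4 activity, was dim but tracked Chac1 among the members. Its signals were 41.9, 50.7, 37.9, 37.2 and 31.2 on the arrays labelled Dox + sACVR2B 1 to 5, against 45.7, 49.3, 34.9, 19.8 and 19.3 on those labelled Dox and 47.7, 47.0, 30.8, 61.5 and 41.2 on those labelled Ctrl. The arrays labelled Dox 4 and Dox 5 were lowest for Trib3 and for Chac1 alike. None of its log2 fold changes passed the test, at -0.20 for Dox against Ctrl, 0.11 for Dox + sACVR2B over Dox and -0.09 for Dox + sACVR2B over Ctrl (adjusted p = 0.572, 0.996 and 0.855 from limma). The other 2 Trib3 features were not above noise.

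Asns, which encodes asparagine synthetase, had signals of 149, 123, 79.4, 167 and 158 on the arrays labelled Dox + sACVR2B 1 to 5, of 136, 176, 71.1, 108 and 102 on those labelled Dox and of 128, 245.5, 119.5, 153 and 97.8 on those labelled Ctrl. The array labelled Ctrl 2 was the highest and Dox 3 the lowest, a ratio of 3.45. On the 10 arrays of high Cdkn1a signal Asns ran from 71.1 to 153 (median 115), and on the 5 of low signal from 119.5 to 245.5 (median 167). A dimmer Asns feature, with signals from 0 to 46.5, had an r of 0.28 with the brighter one. The log2 fold changes of Asns ran from -0.23 for Dox against Ctrl to 0.14 for Dox + sACVR2B against Dox and did not reach the threshold (adjusted p = 0.711 and 0.996 from limma). Psat1, an enzyme of serine synthesis, ran from 38.4 to 103 on the arrays labelled Dox + sACVR2B, from 55.2 to 83.7 on those labelled Dox and from 37.0 to 81.3 on those labelled Ctrl, so that the label ranges overlapped throughout. Fgf21, a hormone that stressed muscle can secrete, had signals from -15.3 to 3.8 and was above noise on 0 arrays. Phgdh, the first enzyme of serine synthesis from glucose, had signals from 1.2 to 20.2 and was above noise on 4 arrays, too few to be tested. Levels under the noise threshold do not show that a gene was silent.

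**Figure D2:**
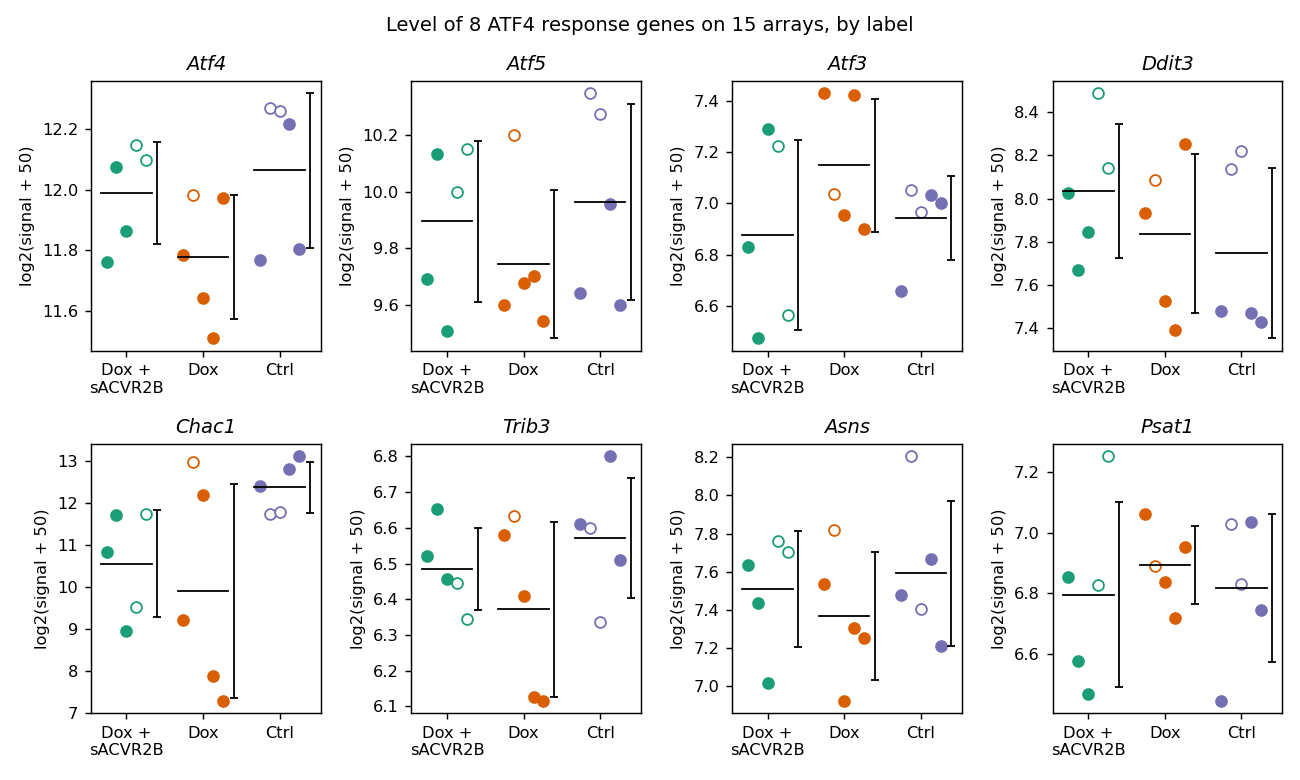
Level, as log2(signal + 50), of the 8 members above noise on each array (points, filled for Cdkn1a signal of 1000 or more), with the mean (line) and SD (bar) of the 5 arrays of each label. Chac1 has the widest range at 5.84, and the label ranges overlap in every panel.

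Of the 8 members measured, 0 passed an adjusted p of 0.05 in any of the 3 comparisons, where 0% of all 21307 features passed in each. At an unadjusted p under 0.05, Chac1 and Atf4 were the 2 members counted for Dox against Ctrl, where 10% of all features were, and 0 members by their brightest feature were counted for Dox + sACVR2B against Dox (4.13% of all features) or for Dox + sACVR2B against Ctrl (8.96%). For Dox against Ctrl the median log2 fold change of the members was -0.21, with 3 above 0 and 5 below. The median was 0.15 for Dox + sACVR2B against Dox, with 6 above and 2 below, and -0.07 for Dox + sACVR2B against Ctrl, with 1 above and 7 below. The median over all genes was -0.000623, 0.00304 and -0.00349 in these comparisons. The comparisons share groups, so that their values are not independent of each other, and with 5 arrays a label and labels in doubt a test not passed does not show that the treatments left these genes unchanged.

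**Figure D3:**
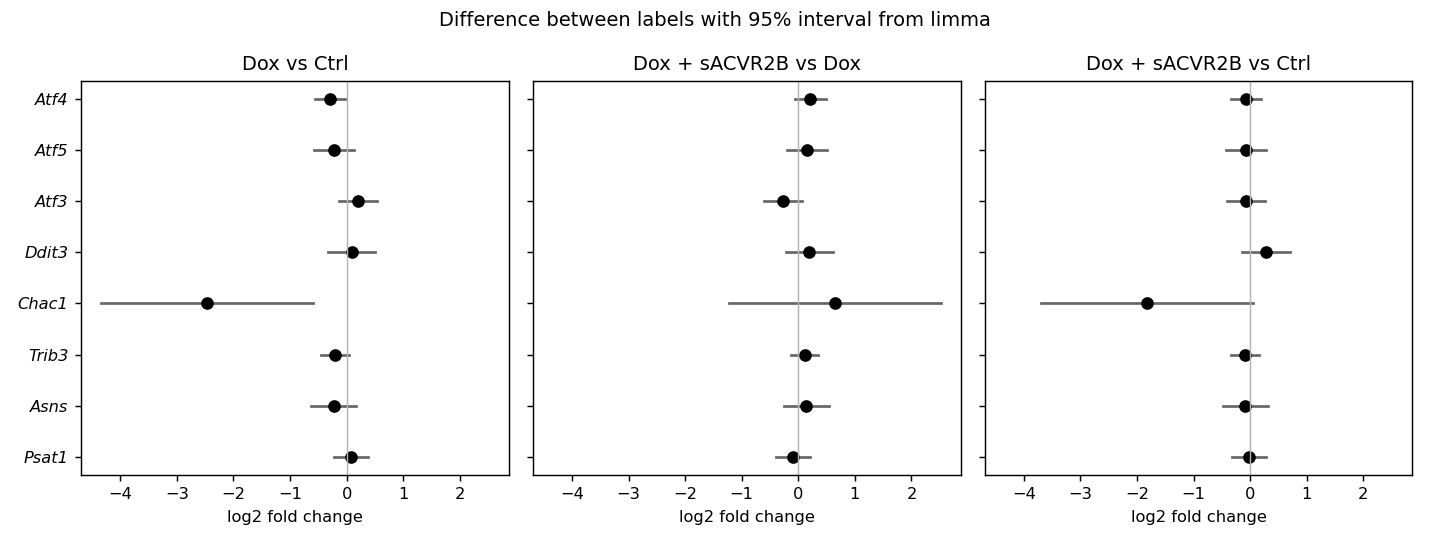
Log2 fold change (point) and 95% interval from limma (line) of the 8 measured members in the 3 comparisons between labels. Chac1 has the widest intervals and lies at -2.47 for Dox against Ctrl, and 0 members pass an adjusted p of 0.05.

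Over all 15 arrays, Chac1 co-varied with Trib3, and Atf4, by its brighter feature, with Atf5, Asns and Ddit3. Chac1 and Trib3 had an r of 0.68 and a rho of 0.49 over 15 arrays, and an r of 0.76 within the 10 arrays of high Cdkn1a. Without the 2 arrays farthest from the median of Chac1, labelled Dox 4 and Dox 5, the r was 0.29, so that the relation rests largely on those arrays. By r with Chac1, Trib3 ranked 359 among 11457 other genes, of which 10.6% had an r of 0.5 or more. Atf3 lay near the low end, at -0.49 and rank 10413, where 8.73% of genes had an r of -0.5 or less. The remaining members lay within the bulk of genes, with Atf5 at 0.46, Atf4 at 0.29, Asns at 0.25, Psat1 at 0.05 and Ddit3 at -0.28.

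Correlations with Atf4 here are those of its brighter feature, which had an r of only 0.42 with the dimmer one. The r of the dimmer feature with Atf5, Asns and Ddit3 was not computed, so the grouping may depend on the feature. Around Atf4 stood Atf5 (r = 0.76), Asns (0.59) and Ddit3 (0.57), and 1608 of the 11457 other genes had an r of 0.5 or more with Atf4. These values were lower within the 10 arrays of high Cdkn1a, at 0.54, 0.39 and 0.20, and the rho of Atf4 with Atf5 there was 0.01. All 4 of these genes had higher medians on the 5 arrays of low Cdkn1a signal, for Atf4 3501 on the 10 arrays and 4489 on the 5, which moves with their pooled r, and what part of the pooled r it makes up was not tested. Between the Chac1 pair and the others, Chac1 with Ddit3 had an r of -0.28 over 15 arrays and -0.59 within the 10. Of the 28 pairs among the 8 members, 20 had an r above 0 over the 15 arrays and 17 within the 10, with a median r of 0.305 and 0.178. An r of 0.5 or more occurred for 5 pairs either way, but only for 2 pairs both ways, Chac1 with Trib3 and Atf4 with Atf5. Within the 10 arrays Trib3 also had an r of 0.56 with Atf4, 0.52 with Atf5 and 0.51 with Asns, so that the separation of the pair from the group was less clear there.

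**Figure D4:**
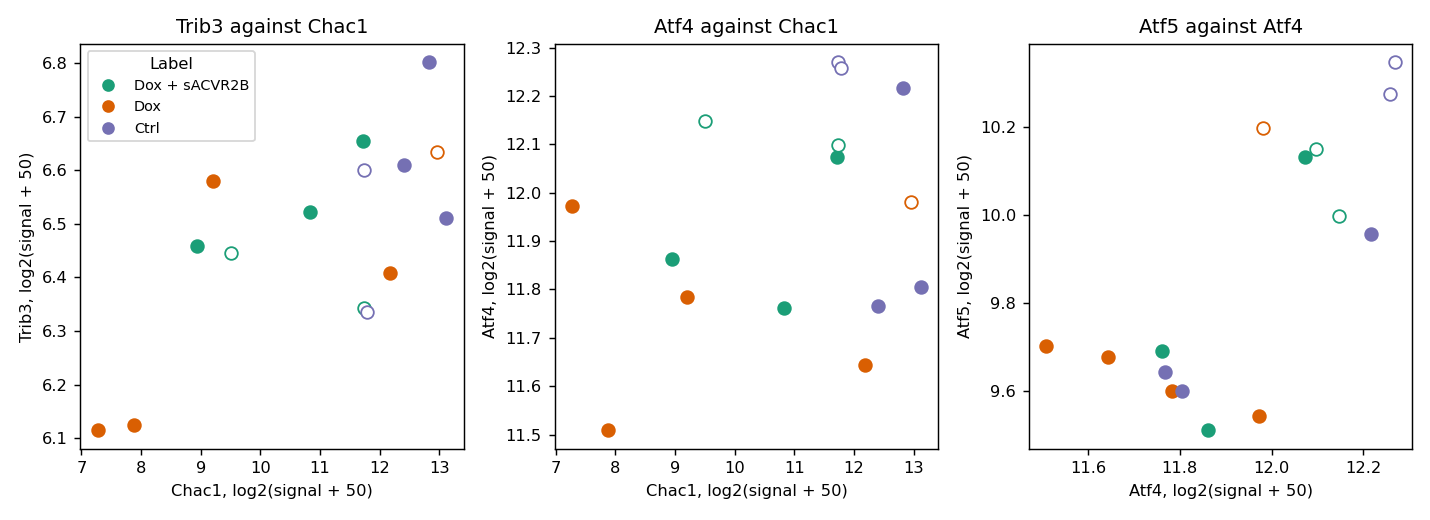
Levels, as log2(signal + 50), of Trib3 against Chac1, Atf4 against Chac1 and Atf5 against Atf4 on the 15 arrays, coloured by label and filled where the Cdkn1a signal was 1000 or more. In the Trib3 panel 2 arrays labelled Dox stand apart at the lower left, and in the Atf5 panel the 5 open points lie at the upper right (r = 0.76 over 15 arrays and 0.54 over the filled points).

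**Figure D5:**
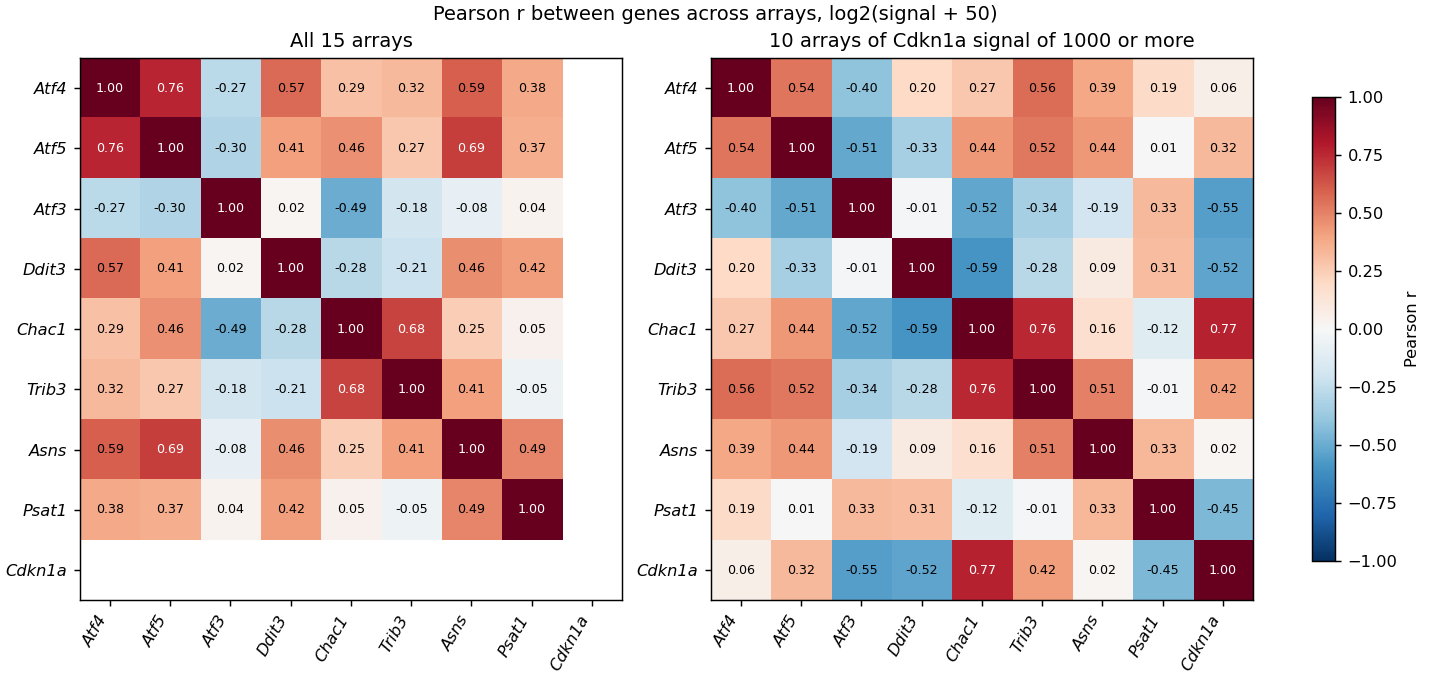
Pearson's r between the 8 measured members over all 15 arrays (left) and, with Cdkn1a added, over the 10 arrays of Cdkn1a signal of 1000 or more (right). Cdkn1a is left blank on the left, where its levels fall into separate clusters, and Chac1 with Trib3 is 0.68 and 0.76, whereas Atf4 with Ddit3 is 0.57 and 0.20.

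The genes whose pattern was most like that of Chac1 were not members. By r over 15 arrays the highest were Il16 (0.94), a chemoattractant cytokine gene, Agfg1 (0.93), Kdm1a (0.91), which encodes a histone demethylase, Acbd4 (0.91), the integrin subunit gene Itgb5 (0.90), the endothelial receptor gene Robo4 (0.89), Mss51 (0.88), C1qtnf9 (0.88), Ddah1 (0.88) and Ramp2 (0.88), a receptor partner of adrenomedullin signalling. Within the 10 arrays of high Cdkn1a their r ran from 0.88 to 0.98. Mss51, a muscle gene of mitochondrial regulation, had signals from 16.6 to 576, and Agfg1 from 666 to 929. Opposite to Chac1 were Mrpl48 (-0.94), a subunit of the mitochondrial ribosome, Dmpk (-0.92), the kinase gene of myotonic dystrophy, Drg2 (-0.92), Aph1a (-0.92) and the transcription factor gene Sox9 (-0.90). With Atf4 the highest were Abcb8 (0.89), Ubac2 (0.87), Clasp2 (0.86), Slc39a11 (0.86) and Cnn2 (0.85). These genes were picked as extremes among 11457, so that their r overstates the likeness.

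The wider pathway, described from lists written with earlier results of these arrays known, held a few genes that followed Chac1 over the 15 arrays. Others did so only within the 10 arrays of high Cdkn1a. Among 9 of 10 further stress genes above noise, Vldlr, a lipoprotein receptor gene, had an r of 0.84 with Chac1 and Herpud1, of the degradation of proteins from the endoplasmic reticulum, an r of 0.78, against 0.82 and 0.86 within the 10 arrays of high Cdkn1a. Gadd45a stood at the other end of that list with -0.59. Ddit4, which encodes REDD1, had an r of 0.19 over 15 arrays and 0.88 within the 10. The summed signal of that list had 0.57 and 0.62. Nupr1, a stress-induced chromatin protein and partner of the response, had an r of 0.73 over 15 arrays and 0.84 within the 10, and Atf2 had 0.47, while Cebpg, a C/EBP partner of ATF4, was the lowest of the 8 listed partners at -0.19. Cebpb, another of the 8, had an r of 0.19 over 15 arrays and 0.82 within the 10, where Cebpg had -0.26. The summed signal of the 8 partners had 0.23 and 0.80. Vldlr signals ran only from 4247 to 7338 and those of Nupr1 from 256 to 841.5, ratios of 1.73 and 3.29.

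Upstream of Atf4, 5 of 7 genes of the eIF2alpha kinases and phosphatase subunits were above noise, with the highest r with Chac1 at 0.51 for Eif2ak2 (the kinase PKR) and 0.44 for Ppp1r15a (GADD34, which leads the phosphatase to eIF2alpha), and the lowest at -0.32 for Eif2ak1 (the kinase HRI). Of 20 aminoacyl-tRNA synthetases of the cytosol, 17 were above noise, with a median r of -0.03 with Chac1, from 0.29 for Kars and for Tars to -0.58 for Wars. Amino acid transporters were mostly dim, with 4 of 9 above noise, and their r with Chac1 lay between -0.09 for Slc3a2 and 0.30 for Slc1a4, with Slc6a9 at -0.00233. Among enzymes of serine, one-carbon and proline metabolism (5 of 11 above noise), Aldh1l2, a mitochondrial folate enzyme, had the highest r with Chac1 at 0.58, followed by Shmt2 at 0.05, and Aldh18a1 the lowest at -0.36.

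Other stress branches did not follow Chac1 upwards as lists. Chaperone genes of the endoplasmic reticulum (10 of 12 above noise) had a median r of -0.24 with Chac1, with Syvn1 at 0.62 and Xbp1 at 0.23 the highest and Calr at -0.43 the lowest. The 6 mitochondrial chaperone and protease genes, all above noise, had a median r of -0.42, from 0.00789 for Yme1l1 and -0.10 for Lonp1 to -0.54 for Hspe1. Over all genes the median r with Chac1 was 0.0202.

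No gene of these lists passed an adjusted p of 0.05 in any comparison between labels. For Dox against Ctrl, the transcription factor partners had 0 genes above 0 and 8 below (median log2 fold change -0.08) and the mitochondrial chaperones and proteases 6 above and 0 below (median 0.14). In the same comparison, the transporters had 0 above and 4 below (median -0.10), the other stress genes 3 above and 6 below (median -0.04) and the tRNA synthetases 8 above and 9 below (median -0.000704). For Dox + sACVR2B against Dox 12 of 17 tRNA synthetases and 5 of 5 measured serine and one-carbon enzymes were above 0 (medians 0.06 and 0.11), and for Dox + sACVR2B against Ctrl 14 of 17 and 4 of 5 (medians 0.05 and 0.05). The medians over all genes were near 0, at -0.000623, 0.00304 and -0.00349 in the comparisons in the order above. Genes of a list were measured on the same arrays, so that these counts are not independent, and they were not tested. The listed genes of smallest p were Nupr1 at -0.50 and Eprs at 0.37 for Dox against Ctrl (adjusted p = 0.408 and 0.439 from limma), Cebpg at 0.43 and Calr at 0.29 for Dox + sACVR2B against Dox (both at an adjusted p = 0.996 from limma), and Eif2ak1 at 0.36 and Calr at 0.30 for Dox + sACVR2B against Ctrl (adjusted p = 0.440 and 0.467 from limma), each as the log2 fold change. These directions, like those of the members, take the labels as given.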

How the data were processed

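Illumina bead arrays measured RNA of TA muscle, 1 array for each of 15 mice. Per the study's methods, the authors quantile-normalized the raw data in Chipster, and the deposited values are intensity on a linear scale. A background was taken off before deposit, as 34.0% of the values lie below 0. A further 30 per-sample columns of non-normalized values carry names that match no label and were not used.

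From the deposited intensity values, the spread of those below 0 gave a noise SD of 7.52, and features above 1.645 SD on at least 5 arrays were kept. After adding 50, log2 values were fitted with limma (version 3.58.1, R 4.3.3) over all 15 arrays, two-sided, with Benjamini-Hochberg adjustment over 21307 features. Gene names came from the platform annotation, which gave 1 gene for 34885 features, several for 18 and none for 10378. Promoters came from RefSeq. The procedure was tested on simulated data. Correlations used Pearson's r on the log2 scale.

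Members and lists were chosen with earlier results of these data known. Named genes were the members, the extremes of r with Chac1 or Atf4, and from each pathway list the 2 highest and 1 lowest in r with Chac1 and the smallest p in each comparison. The number of arrays limits the precision. Alternatives were no filter, offsets of 26 and 100, a fit of the compared groups only, weights per array, a robust prior with trend, a block for the replicate number, cyclic loess, the median over features of a gene, and leaving out each array.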

Additional observations from a re-analysis of the deposited data

Results flagged for a closer look

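In 24 groups of 1 member and 1 label, 2 arrays stood apart from the other 4 of their label by Dixon's test. Chance gives about 1 in 20 for independent groups. These groups share the same arrays, so whether 2 is more than chance gives was not tested. Atf5 on the array labelled Dox 2 had a log2 level of 10.20 (signal 1124), the highest of its label, with a gap of 0.49 to the next array in a range of 0.65. That array was also the only one labelled Dox with a low Cdkn1a signal. Atf3 on the array labelled Ctrl 1 had a log2 level of 6.66 (signal 50.9), the lowest of its label, with a gap of 0.31 in a range of 0.40.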

How the results depend on the processing

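No member passed an adjusted p of 0.05 under any of the 10 other settings or with any of the 15 arrays left out. No feature was called under the other settings, and leaving out 1 array gave 0 to 2 calls for Dox against Ctrl, 0 to 1 for Dox + sACVR2B against Ctrl and 0 to 0 for Dox + sACVR2B against Dox, with the calls made without the array labelled Ctrl 5. The setting without the 5 arrays of low Cdkn1a was chosen after seeing the data, so that its lack of calls adds no support. Of the 24 fold changes of members, 3 changed sign under a setting other than leaving out 1 array, all for Dox + sACVR2B against Ctrl, and the cause was not tested. They were Atf4 with the median over features (0.063), Atf5 with array weights (0.043) and without the 5 arrays of low Cdkn1a (0.044), and Psat1 with array weights (0.052).

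Leaving out 1 array changed the sign of 7 fold changes. The log2 values for Dox + sACVR2B against Ctrl then ran from -0.18 to 0.070 for Asns, -0.17 to 0.034 for Atf3, -0.16 to 0.028 for Atf5 and -0.14 to 0.061 for Psat1. For Dox against Ctrl they ran from -0.013 to 0.21 for Ddit3 and -0.018 to 0.13 for Psat1, and for Chac1 in Dox + sACVR2B against Dox from -0.0089 to 1.41. Of 13 correlations with Chac1 or Atf4, 6 moved by more than their jackknife error under another setting. The r of Psat1 with Chac1, near 0 at 0.05, was -0.12 within the 10 arrays of high Cdkn1a.

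The labels give the same replicate numbers under each label, but samples of 1 number did not deviate together. Over 15 pairs the r of their deviations ran from -0.38 to 0.35, 4 pairs were over 0.1, and 1 array was best matched with its own number. With the number as a block, 0 features and 0 members were called in each comparison, and Chac1 had -2.47 for Dox against Ctrl (adjusted p = 0.408 from limma).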
